A study of Vitis vinifera with 2 samples.

Results

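Chromosome 2 of grapevine (Vitis vinifera cv. 'Chardonnay') carried 13144 of the 317444 small interfering RNA (siRNA) clusters called in embryogenic callus (EC) and leaf. These were all clusters whose sequence name was chr2 in the deposited lists, with 9815 of 227847 in EC and 3329 of 89597 in leaf. EC is a proliferating culture of dedifferentiated cells that can form embryos, and it was started from anthers and pooled over Petri dishes. The leaf sample was a pool of young leaves from vines of the same cultivar. Each tissue gave 1 library of gel-selected small RNA, so no difference between EC and leaf had a replicate check. A cluster is a stretch of the 12X assembly of the reference genotype PN40024 in which mapped small RNAs lay close together. Its DicerCall is the predominant size of these RNAs, or N where none was called. The rule for N is not given in the sources used here, so a cluster of class N need not be made of siRNAs. No cluster of the chromosome was filtered out. The windows of 1 Mb at 1 to 2, 12 to 13 and 15 to 16 Mb were chosen on the counts given here, so their values are a description without a test.

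In plants, 24 nt siRNAs are made from transcripts of RNA polymerase IV by the RNA-dependent RNA polymerase RDR2 and the Dicer-like enzyme DCL3. Loaded into AGO4, they guide RNA-directed DNA methylation (RdDM), which silences transposable elements and other repeats. The 21 nt siRNAs come mostly from DCL4 and from double-stranded RNA made by RDR6, and they guide the cleavage of transcripts in post-transcriptional silencing, with a further part in a non-canonical form of RdDM. Chromosome 2 is known in grapevine for the berry colour locus and the sex-determining region, neither of which was located among the clusters here. Annotation of the 12X build was not used here, so no cluster was assigned to a gene or a repeat.

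The number of reads behind a cluster was unknown, since the score field was empty in both lists. A thinly covered cluster therefore weighed as much as a deep one. A deeper library yields more clusters, and sequencing depth and tissue cannot be told apart with 1 library each. Likewise, fewer cells producing an siRNA and less siRNA per cell cannot be told apart in whole tissue. Intervals given in brackets are exact binomial 95% intervals (Clopper-Pearson), and they cover the counting of clusters only.

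Chromosome 2 had 9815 clusters in EC and 3329 in leaf, an EC/leaf ratio of 2.95 (2.83 to 3.07). The ratio ranged between 1.69 and 3.52 on the 18 other chromosomes, with a median of 2.55, and chromosome 2 had the 3rd highest ratio of the 19. It held 4.31% of the EC list (4.22 to 4.39) and 3.72% of the leaf list (3.59 to 3.84). EC clusters covered 1154 kb, or 6.15% of the chromosome, and leaf clusters covered 303 kb, or 1.62%. The covered length thus differed more than the number of clusters, with a ratio of 3.80. In density there were 523 clusters per Mb in EC and 177 per Mb in leaf.

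The 24 nt class made up most of the clusters of the chromosome in both tissues, and a larger share of them in EC. There were 7669 clusters of 24 nt in EC, or 78.1% (77.3 to 78.9), and 2022 in leaf, or 60.7% (59.1 to 62.4). Their EC/leaf ratio was 3.79 (3.61 to 3.99), against 2.05 to 4.43 on the other chromosomes. Clusters of 21 nt, by contrast, were about as many in EC as in leaf, with 204 and 212. That ratio of 0.962 had an interval of 0.790 to 1.17 that included 1. On the other chromosomes it ran from 0.531 to 1.05 with a median of 0.723, so that chromosome 2 was the 4th highest. In share of the list the 21 nt class was 2.08% of EC clusters (1.81 to 2.38) and 6.37% of leaf clusters (5.56 to 7.25).

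The remaining classes were also more numerous in EC. The 22 nt class, with 149 clusters in EC and 48 in leaf, had a ratio of 3.10 (2.23 to 4.39), the highest of the 19 chromosomes. The other chromosomes had 22 nt ratios of 1.16 to 2.63 with a median of 1.85. The 20 nt class had 94 clusters in EC and 35 in leaf, and the 23 nt class 393 in EC and 203 in leaf. Clusters with no called size (N) numbered 1306 in EC, or 13.3%, and 809 in leaf, or 24.3%, a ratio of 1.61 (1.48 to 1.76). With clusters of all lengths the 24 nt class thus had the largest EC/leaf ratio of the 6 classes on chromosome 2 and the 21 nt class the smallest. Among clusters of at least 100 bp the 22 nt ratio, from 29 clusters in EC and 4 in leaf, was 7.25 (2.55 to 28.4), against 5.13 for 24 nt.

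EC clusters were longer as well as more numerous. The median length was 92 bp in EC, with quartiles of 45 and 148 bp. In leaf it was 66 bp, with quartiles of 31 and 113 bp. Clusters no longer than 30 bp, which is little more than an siRNA itself, made up 14.8% of EC clusters and 24.7% of leaf clusters. At the other end, 131 EC clusters and 30 leaf clusters were at least 500 bp long. Of these long clusters, 120 in EC and 22 in leaf were of 24 nt, 10 in EC and 4 in leaf of 21 nt, and 1 in EC and 4 in leaf of class N. Clusters of 24 nt had a median of 99 bp in EC and 73 bp in leaf. Clusters of 21 nt had a median of 82 bp in EC and 51.5 bp in leaf, and the EC value was the highest of the 19 chromosomes, where the others lay between 55 and 73 bp.

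Strand was the next property described. ShortStack assigns a strand to a cluster only when a large share of its reads map to that strand, and leaves the strand open otherwise. The share required is not given in the sources used here, so an open strand need not mean evenly split reads. No strand was assigned to 53.8% of EC clusters (52.8 to 54.8) and to 44.2% of leaf clusters (42.5 to 45.9). In the 24 nt class these shares were 55.4% in EC and 46.9% in leaf. In the 21 nt class they were 61.3% in EC (54.2 to 68.0) and 41.5% in leaf (34.8 to 48.5). The 21 nt share in EC was the highest of the 19 chromosomes, the others having 38.7 to 54.2%. Length and strand went together, since 15.6% of EC clusters and 12.3% of leaf clusters of 30 bp or less had no strand. Among clusters over 500 bp it was 87.8% in EC and 86.7% in leaf. The longer clusters of EC therefore moved with its higher share without strand, and the part of length in that share was not tested. Within single length classes the difference varied. From 31 to 60 bp the share was 45.7% in EC and 46.5% in leaf. For 61 to 100 bp it was 54.1% in EC and 52.3% in leaf. Clusters of 101 to 150 bp had no strand in 62.0% of cases in EC and 55.7% in leaf. From 301 to 500 bp it was 84.2% in EC and 75.8% in leaf.

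**Figure D1:**
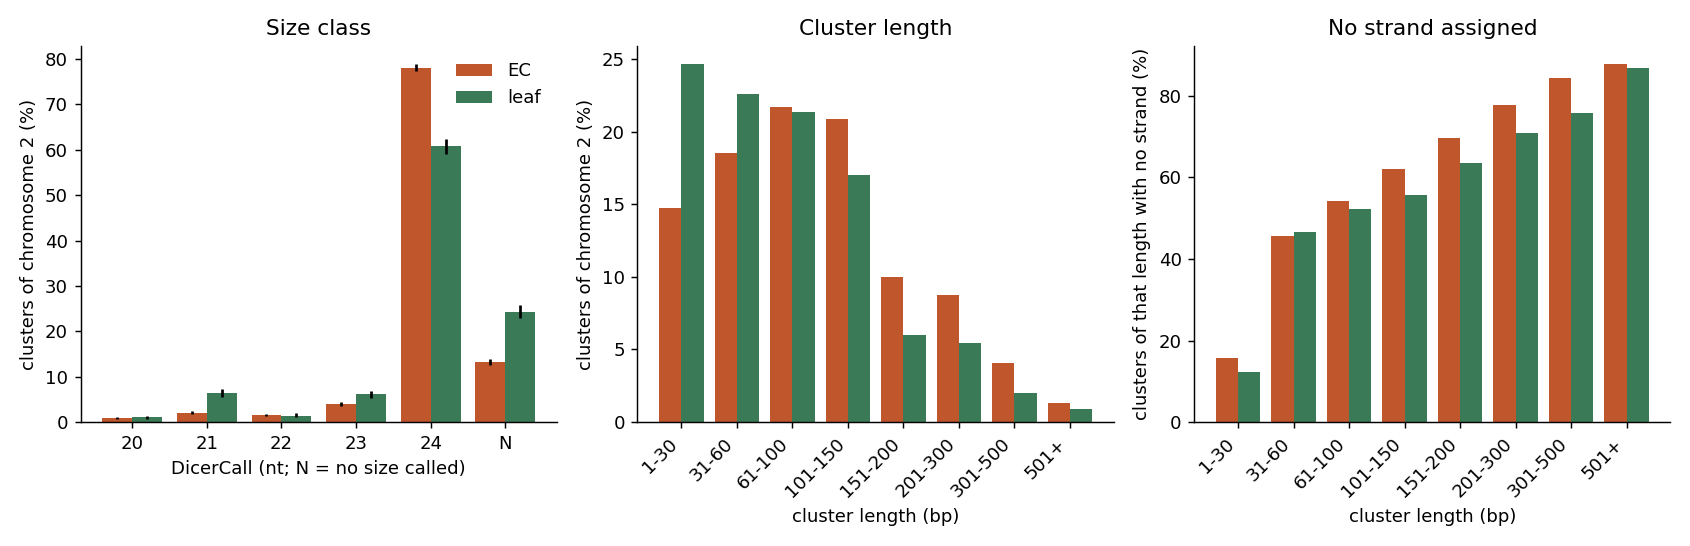
Clusters of chromosome 2 in EC (left bars) and leaf (right bars), 1 library each. The panels show the percentage of clusters in each DicerCall class with 95% counting intervals (left), in each length class in bp (middle), and the percentage with no strand within each length class (right). The 24 nt class was 78.1% of EC and 60.7% of leaf clusters, and clusters of 30 bp or less were 14.8% in EC and 24.7% in leaf.

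Among clusters with a strand, the plus strand was slightly the more frequent in both tissues. In EC there were 2394 on the plus strand and 2138 on the minus strand, or 52.8% plus (51.4 to 54.3). In leaf there were 986 on the plus and 872 on the minus strand, or 53.1% plus (50.8 to 55.4). On the other chromosomes the plus share lay between 50.7 and 53.2% in EC and between 50.1 and 53.7% in leaf, so that chromosome 2 was within their range. More plus than minus clusters were found in 15 of the 18 complete windows in EC and in 12 of the 18 in leaf. This count was not taken over the windows of the other chromosomes, and nothing is read from it.

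The distribution of clusters along the chromosome was then described in 18 complete windows of 1 Mb, by cluster midpoint. EC clusters were few at the start of the chromosome and many toward its end, whereas leaf clusters were fewest between 9 and 13 Mb. In EC the lowest window held 208 clusters (1 to 2 Mb), the median window 466 and the highest 945 (16 to 17 Mb). In leaf the lowest held 63 (12 to 13 Mb), the median 194 and the highest 263 (3 to 4 Mb). The window at 16 to 17 Mb also had the most EC clusters of all 420 complete windows of the 19 chromosomes.

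Over the first 5 Mb the tissues had similar numbers. EC had 244 clusters at 0 to 1 Mb, 239 at 2 to 3 Mb, 301 at 3 to 4 Mb and 232 at 4 to 5 Mb. Leaf had 212, 218, 263 and 181 in the same windows. Their ratios lay between 1.10 and 1.28. From 5 to 8 Mb the EC numbers were 358, 450 and 544, against 213, 215 and 237 in leaf, and the ratio was 1.68, 2.09 and 2.30. Leaf numbers changed little over these 8 Mb, so the higher ratio went with more EC clusters.

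From 8 Mb on, EC clusters outnumbered leaf clusters 3.15 to 9.11-fold in the complete windows. At 8 to 9 Mb there were 730 in EC and 157 in leaf, a ratio of 4.65. From 9 to 12 Mb the windows had 433, 482 and 268 clusters in EC, against 96, 99 and 81 in leaf. At 13 to 14 Mb there were 793 in EC and 151 in leaf, and at 14 to 15 Mb 883 in EC and 168 in leaf, with ratios of 5.25 and 5.26. Here the change from the preceding windows was on the leaf side as well, with every leaf count from 8 to 16 Mb below every leaf count of the first 8 Mb. In the last complete windows, at 16 to 17 and 17 to 18 Mb, there were 945 and 743 clusters in EC and 207 and 236 in leaf. The incomplete end of the chromosome beyond 18 Mb held 635 clusters in EC and 153 in leaf, a ratio of 4.15 (3.47 to 4.98).

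**Figure D2:**
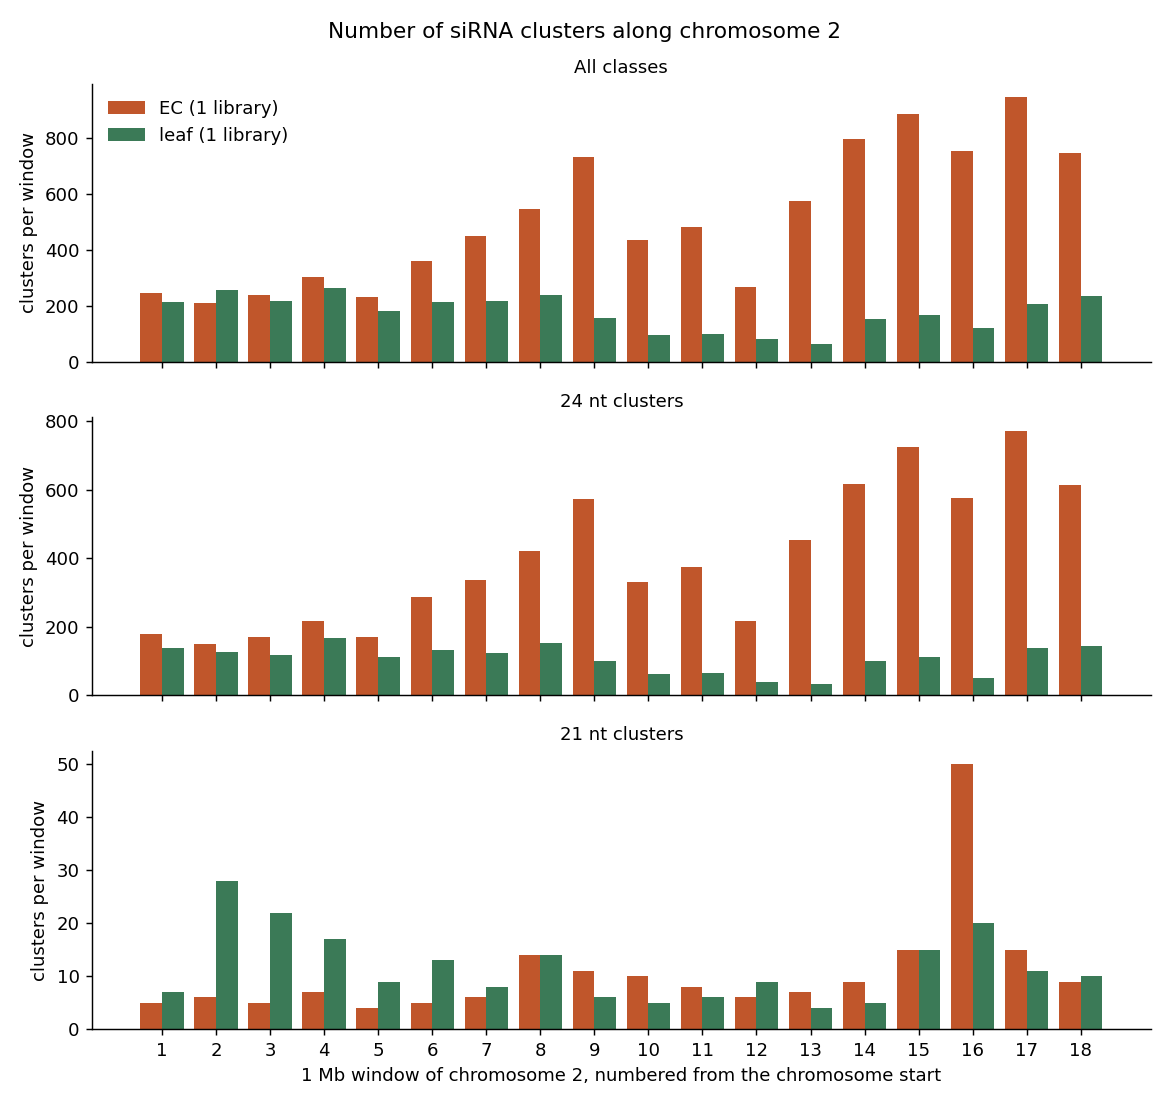
Number of clusters in each complete 1 Mb window of chromosome 2, numbered from the chromosome start, in EC (left bars) and leaf (right bars), 1 library each, for all classes (top), 24 nt (middle) and 21 nt clusters (bottom). Counts in EC ran from 208 to 945 per window and those in leaf from 63 to 263, and in window 16 (15 to 16 Mb) 50 EC and 20 leaf clusters were of 21 nt.

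An EC/leaf ratio of at least 5 was found in 4 of the 18 windows, or 22.2%, against 13.6% of all 420 windows. A ratio below 1 was found in 1 of 18, or 5.56%, against 1.9% of all windows. For 24 nt clusters the ratio was at least 5 in 9 of 18 windows, or 50.0%, against 26.7%. More 21 nt clusters in EC than in leaf were found in 7 of 18 windows, or 38.9%, against 38.1%. These counts include the windows that had been chosen on them, and nothing is read from their shares.

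The size classes followed the chromosome differently. The 24 nt ratio was between 1.16 and 1.54 in the 5 windows of the first 5 Mb, between 2.17 and 2.73 in the next 3, and between 4.23 and 13.7 in the 10 after those. Its interval lay above 1 in 17 of the 18 windows, all but 1 to 2 Mb. The 21 nt class was fewer in EC in 9 windows, equal in 2 and more numerous in 7. Its interval lay below 1 at 1 to 2 Mb (6 clusters in EC, 28 in leaf) and at 2 to 3 Mb (5 in EC, 22 in leaf), and above 1 at 15 to 16 Mb (50 in EC, 20 in leaf). In all 18 windows, EC had a higher 24 nt share, a longer median cluster and a higher share of clusters without strand than leaf. These directions were not particular to chromosome 2. On the other chromosomes the 24 nt share was 74.9 to 78.3% in EC and 56.2 to 62.3% in leaf. Median length was 80 to 93 bp in EC and 58 to 72 bp in leaf, and the share without strand 48.8 to 54.7% in EC and 43.1 to 45.6% in leaf. The window counts of this paragraph were not taken over all 420 windows, and nothing is read from them.

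**Figure D3:**
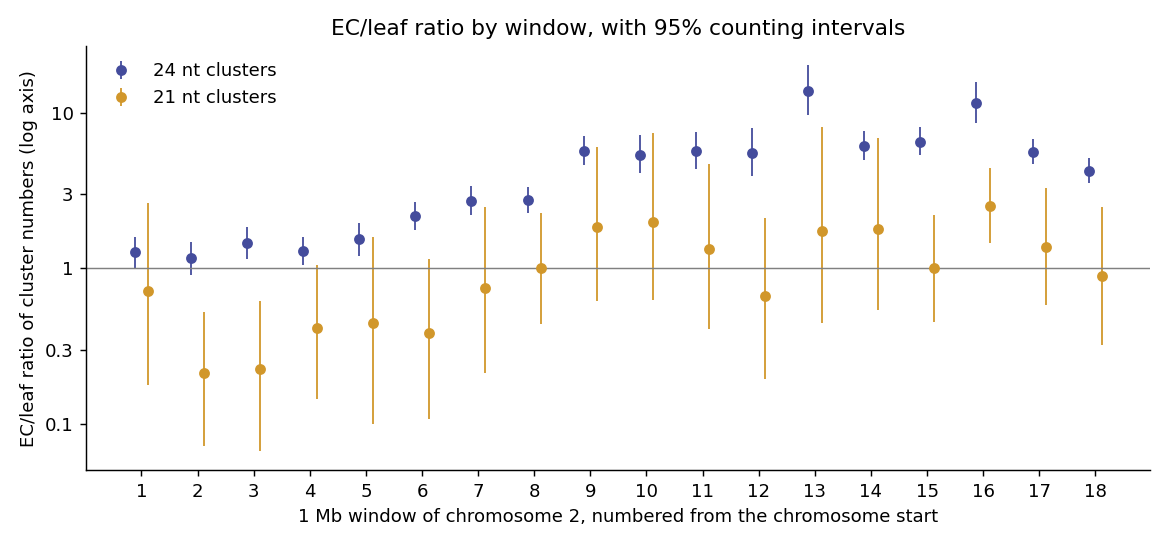
EC/leaf ratio of cluster numbers in the 18 complete 1 Mb windows of chromosome 2, numbered from the chromosome start, on a log axis, for 24 nt and 21 nt clusters. Vertical lines are 95% counting intervals and the horizontal line marks equal numbers. The 24 nt ratio was 1.16 in window 2 (1 to 2 Mb) and 13.7 in window 13 (12 to 13 Mb), and the 21 nt ratio was 0.214 in window 2 and 2.50 in window 16 (15 to 16 Mb).

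When the chromosome was divided into 5 equal parts, the ratio was 1.04 (0.944 to 1.14) in the first part, with 914 clusters in EC and 882 in leaf. This was the lowest of the 19 chromosomes for the first part, the others having 1.16 to 3.05. The later parts had ratios of 1.71, 4.31, 5.47 and 4.25. For 21 nt clusters the first part had 22 in EC and 67 in leaf, a ratio of 0.328 (0.193 to 0.538), again the lowest of the 19. The last part had 85 in EC and 44 in leaf, a ratio of 1.93 (1.33 to 2.85), the highest of the 19, where the others had 0.244 to 1.63. The 21 nt ranks rested in part on the windows chosen on their counts. Without 15 to 16 Mb the last part had 36 clusters of 21 nt in EC and 24 in leaf, a ratio of 1.50 (0.871 to 2.63) that was below the highest of the others. Without 1 to 2 Mb the first part had a 21 nt ratio of 0.410, above the lowest of the others (0.341). Over all classes the ratio was then 1.13 (1.01 to 1.26), still below the lowest of the others (1.16), which lay within its interval. Chromosome arms are not oriented alike between chromosomes, so these ranks compare positions in the assembly and nothing more.

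Window counts in EC and leaf were not closely related along chromosome 2. Pearson's r was −0.18 and Spearman's rho −0.30 over the 18 windows, and without the 3 chosen windows r was −0.01 and rho −0.10 (n = 15). On the other chromosomes rho lay between −0.62 and 0.30. For 24 nt clusters r was −0.06 and rho −0.12, and for 21 nt clusters r was 0.27 and rho 0.01. Within EC, windows with more 24 nt clusters had more 21 nt clusters, with rho of 0.83 and r of 0.47, and within leaf rho was 0.46 and r 0.32. Windows with more clusters also had longer ones, with r of 0.66 and rho of 0.67 in EC and r of 0.63 and rho of 0.50 in leaf. These values are descriptions, since all windows come from the same library per tissue and neighbouring windows resemble each other.

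The window at 1 to 2 Mb was the single window of chromosome 2 with fewer clusters in EC (208) than in leaf (257), with a ratio of 0.809 (0.671 to 0.975). The interval included 1 with clusters of at least 100 bp, 89 in EC and 100 in leaf (0.661 to 1.20), and with the window moved 0.5 Mb downstream (0.683 to 1.004). The classes moved apart there. Clusters of 24 nt numbered 149 in EC and 128 in leaf, a ratio of 1.16 (0.913 to 1.49). Clusters of 21 nt numbered 6 in EC and 28 in leaf, a ratio of 0.214 (0.0725 to 0.527), and those of class N 39 in EC and 81 in leaf, a ratio of 0.481 (0.320 to 0.714). The 23 nt class had 10 in EC and 16 in leaf, and the 20 nt class 1 in EC and 3 in leaf. The lower number in EC was thus made up mostly of the 21 nt and N classes, while 24 nt and 22 nt clusters were not fewer in EC.

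Divided into bins of 100 kb, this window had 13 to 34 clusters per bin in EC and 19 to 34 in leaf. Leaf had more clusters in 9 of the 10 bins, and the exception was the last, with 34 in EC and 31 in leaf. The 24 nt clusters were nevertheless more numerous in EC in 7 bins. No bin had more 21 nt clusters in EC, where 0 or 1 per bin was found, against 1 to 5 in leaf. The 28 leaf clusters of 21 nt were therefore spread over the whole window. Their median length was 47.5 bp and the longest was 262 bp. None of the 5 that were overlapped by an EC cluster was overlapped by an EC cluster of 21 nt.

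Bins with more leaf than EC clusters were found 28 times among the 187 bins of chromosome 2, and 26 of the 28 started below 5 Mb. They were 14.97% of its bins, against 9.43% of the 4254 bins of the 19 chromosomes. Bins of this kind thus also occurred in windows of the first 5 Mb where EC had more clusters in total.

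The window at 12 to 13 Mb had the largest ratio of the chromosome, with 574 clusters in EC and 63 in leaf (9.11, 7.02 to 12.01). Its EC number was above the median of 466 and its leaf number was the lowest of the 18 windows. There were 453 clusters of 24 nt in EC and 33 in leaf (13.7, 9.63 to 20.2), 76 in EC and 15 in leaf of class N, and 7 in EC and 4 in leaf of 21 nt. Covered length was 66.3 kb in EC and 4.27 kb in leaf, 15.5 times as much in EC. With clusters of at least 100 bp the ratio of numbers was 17.1, and with the window moved 0.5 Mb upstream it was 5.05. All 10 bins of the window had more clusters in EC, with 30 to 102 per bin in EC and 1 to 10 in leaf. The median length of leaf clusters, 45 bp, was the lowest of the 18 windows, close to the 47 bp at 9 to 10 and 10 to 11 Mb. No leaf cluster was of at least 500 bp, as was also the case in other windows, such as 8 to 9 and 9 to 10 Mb. In EC the window had a median of 89.5 bp and 8 clusters of at least 500 bp, all of 24 nt.

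The window at 15 to 16 Mb combined a high 24 nt ratio with the largest number of EC clusters of 21 nt on the chromosome. It had 753 clusters in EC and 122 in leaf (6.17, 5.09 to 7.54), and with clusters of at least 100 bp the ratio was 9.73. The 24 nt class numbered 576 in EC and 50 in leaf (11.5, 8.62 to 15.7). The 21 nt class numbered 50 in EC and 20 in leaf (2.50, 1.46 to 4.43), and made up 6.64% of EC clusters and 16.4% of leaf clusters in the window. It was thus the larger share in leaf although the larger number in EC. The strand was open in 37 of the 50 EC clusters of 21 nt (74.0%, 59.7 to 85.4) and in 11 of the 20 leaf clusters (55.0%, 31.5 to 76.9).

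These 21 nt clusters were concentrated in a few bins. There were 14 in EC and 1 in leaf between 15 and 15.1 Mb, and 25 in EC and 1 in leaf between 15.1 and 15.2 Mb. Between 15.3 and 15.4 Mb there were 10 in each tissue. The other 7 bins held 0 or 1 in EC and 0 to 3 in leaf. Bins with at least 10 EC clusters of 21 nt were 3 of the 187 bins of chromosome 2, or 1.60%, against 0.282% (12 bins) of the 4254 bins of the 19 chromosomes. All 3 of them lay in this window, which had been chosen on its counts.

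**Figure D4:**
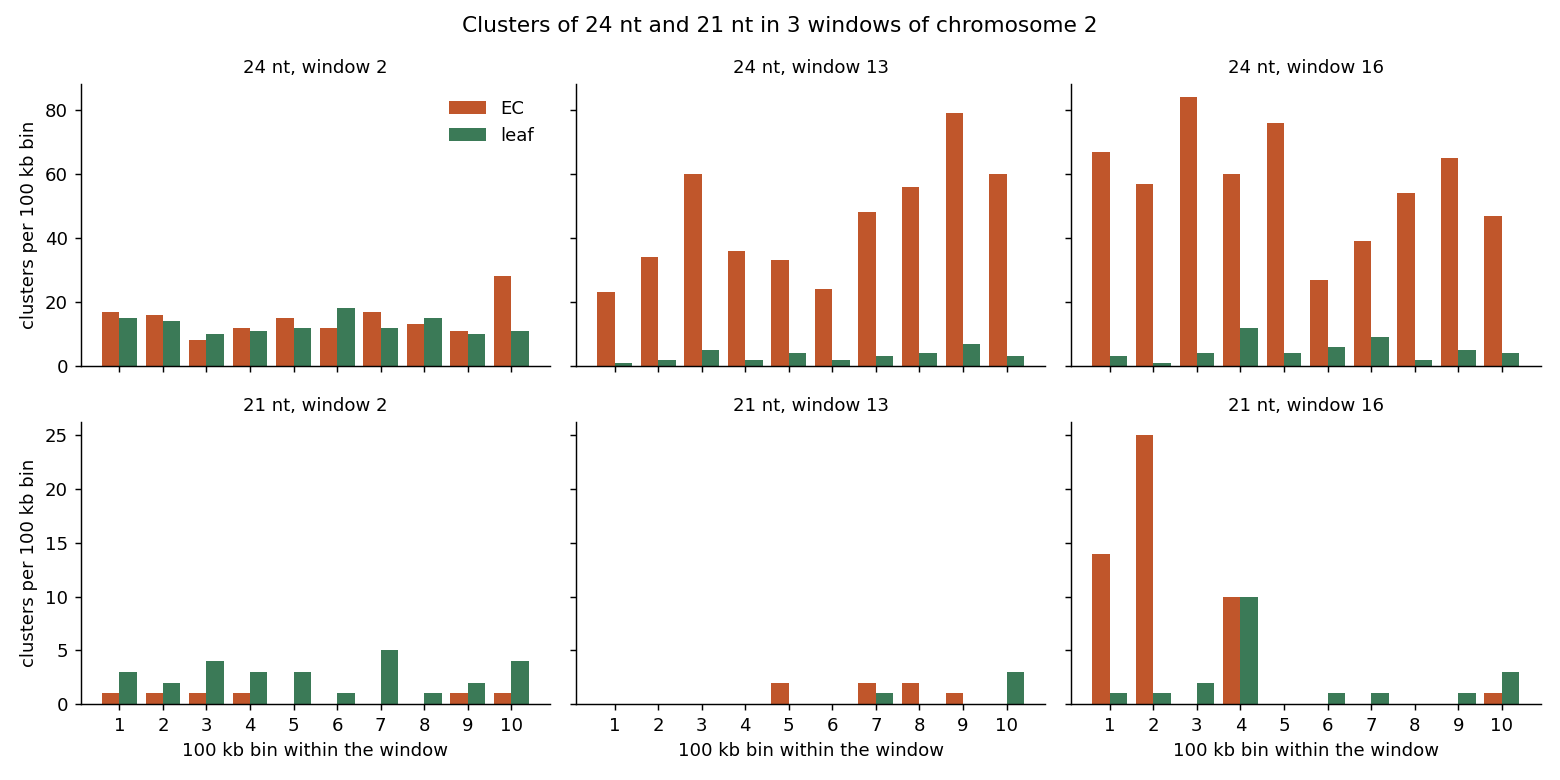
Clusters of 24 nt (top) and 21 nt (bottom) per 100 kb bin in the windows at 1 to 2 Mb (window 2), 12 to 13 Mb (window 13) and 15 to 16 Mb (window 16), in EC (left bars) and leaf (right bars), 1 library each. In window 16 the bins 1, 2 and 4 held 14, 25 and 10 EC clusters of 21 nt, against 1, 1 and 10 in leaf.

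The first of these stretches, chr2:15002335-15187627, held 39 EC clusters of 21 nt, 19.1% of all those on the chromosome. They lay among 107 clusters of 24 nt in EC and had a median length of 108 bp, with 4 of at least 500 bp. No strand was assigned to 30 of the 39. A leaf cluster overlapped 3 of the 39, and 1 of them was overlapped by a leaf cluster of 21 nt. Over all classes of the window, 57 of 753 EC clusters (7.57%) were overlapped, a similar share. In leaf the same bins held 2 clusters of 21 nt, of 22 and 80 bp, so almost no 21 nt cluster was called there in leaf.

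The second stretch was compact in EC and had 21 nt clusters in both tissues. Within 10841 bp (chr2:15384661-15395501) EC had 10 clusters of 21 nt and 1 of 24 nt among 14 in all. Leaf had 10 clusters of 21 nt in the whole bin of 100 kb, spread over 80827 bp. A leaf cluster overlapped 3 of the 10 in EC, each time one of 21 nt. An EC cluster overlapped 8 of the 10 in leaf, and for 4 of them it was of 21 nt. The longest EC cluster there, chr2:15387562-15388388, was 827 bp long and had no strand, and 73.2% of it was covered by 2 leaf clusters of 21 nt, the longer of 520 bp.

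The 21 nt values of the whole chromosome rested in part on this window. Without it there were 154 clusters of 21 nt in EC and 192 in leaf, a ratio of 0.802 (0.645 to 0.997), whose interval no longer included 1. Their median length in EC was 75.5 bp and their share without strand 57.1%, against 51.5 bp and 40.1% in leaf. Covered length of the 21 nt class was 24.2 kb in EC and 18.4 kb in leaf on the whole chromosome, a ratio of 1.31, and without the window the ratio was 0.887, so that its direction changed. Of the 10 EC clusters of 21 nt with at least 500 bp, 3 remained outside the window, as many as in leaf.

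Overlap between the tissues was taken as at least 1 shared bp. A leaf cluster overlapped 1442 of the 9815 EC clusters, or 14.7% (14.0 to 15.4), against 16.3% over the 19 chromosomes. An EC cluster overlapped 1451 of the 3329 leaf clusters, or 43.6% (41.9 to 45.3), against 40.8%. With a partner required over 50% of a cluster the shares were 8.26% in EC and 32.7% in leaf, and with midpoints within 500 bp 28.6% in EC and 66.8% in leaf. Most EC clusters therefore lay where leaf had none. The shared length was 107 kb, which was 9.23% of the length covered in EC and 35.1% of that covered in leaf. Clusters with a partner were longer, with a median of 117 bp in EC against 87 bp for those without, and 83 bp in leaf against 53 bp.

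By class, leaf clusters of 24 nt were overlapped most often, with 984 of 2022 (48.7%, 46.5 to 50.9). Leaf clusters of 21 nt were overlapped in 66 of 212 cases (31.1%, 24.97 to 37.8). With all windows included this was the highest share of the 19 chromosomes, where the others had 16.6 to 30.4%. The window at 15 to 16 Mb, chosen on its counts, gave 11 of these 66 from its 20 leaf clusters of 21 nt (55.0%). The rank therefore rested in part on that window and is not read as a trait of the chromosome. In EC, 1168 of 7669 clusters of 24 nt (15.2%) and 36 of 204 clusters of 21 nt (17.6%, 12.7 to 23.6) were overlapped by a leaf cluster. A longer cluster or a denser list makes an overlap more likely by position alone, and no correction for this was made.

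Taken over all classes, overlapping clusters mostly shared their DicerCall, but by class only those of 24 nt did so in most cases. In the 20, 22 and 23 nt classes the partner had the same class in 0 to 16.7% of cases. The partner had the same class for 68.2% of EC clusters and 68.3% of leaf clusters with a partner. For leaf clusters of 24 nt it was 870 of 984 (88.4%), and for EC clusters of 24 nt 873 of 1168 (74.7%). In the lists as a whole, 78.1% of EC and 60.7% of leaf clusters were of 24 nt. Whatever their own class, 81.1% of leaf clusters with a partner had an EC partner of 24 nt. For EC clusters with a partner, 69.1% had a leaf partner of 24 nt. For 21 nt clusters the partner had the same class in 18 of 36 cases from EC (50.0%, 32.9 to 67.1) and in 22 of 66 from leaf (33.3%, 22.2 to 46.0). Of the lists as a whole, 2.08% in EC and 6.37% in leaf were of 21 nt. The classes differ in how frequent they are, and their shares were not tested against each other. Where both partners had a strand, it was the same in 323 of 365 cases from EC (88.5%, 84.8 to 91.6) and in 334 of 375 from leaf (89.1%, 85.5 to 92.0).

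Overlap shifted along the chromosome with the numbers of clusters. The share of EC clusters with a leaf partner was highest at 1 to 2 Mb (35.6%) and lowest at 12 to 13 Mb (5.05%). The share of leaf clusters with an EC partner was lowest at 1 to 2 Mb (28.8%) and highest at 14 to 15 Mb (64.3%), and that last value was also the highest of the 420 windows. At 12 to 13 Mb it was 47.6% and at 15 to 16 Mb 49.2%. Over the 18 windows the EC number and the share of leaf clusters overlapped had r of 0.85 and rho of 0.83. The EC/leaf ratio and the share of EC clusters overlapped had r of −0.89 and rho of −0.91. Both relations are partly built in, because the cluster numbers enter both measures.

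**Figure D5:**
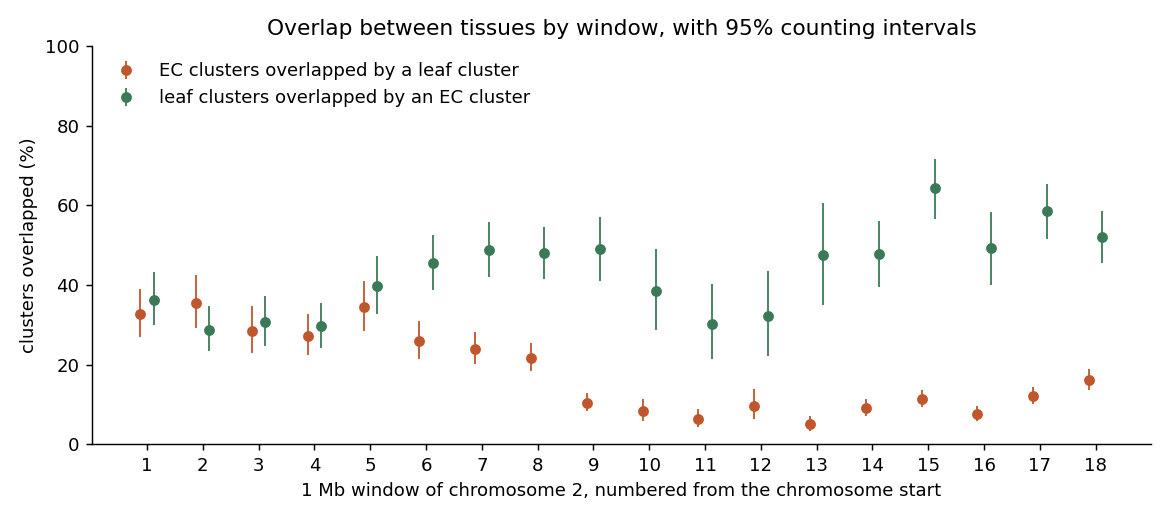
Percentage of EC clusters overlapped by at least 1 bp of a leaf cluster, and of leaf clusters overlapped by an EC cluster, in the 18 complete 1 Mb windows of chromosome 2, numbered from the chromosome start. Vertical lines are 95% counting intervals. Window 2 (1 to 2 Mb) had 35.6% of EC and 28.8% of leaf clusters overlapped, and window 13 (12 to 13 Mb) 5.05% of EC and 47.6% of leaf clusters.

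A change of size between 21 nt and 24 nt was found in 44 pairs when each EC cluster was paired with the leaf cluster of longest overlap. In 31 of them the EC cluster was of 24 nt and the leaf cluster of 21 nt, and in 13 the EC cluster was of 21 nt and the leaf cluster of 24 nt. These were 31 of the 1168 EC clusters of 24 nt with a partner (2.65%) and 13 of the 36 of 21 nt (36.1%). The share of such pairs on the other chromosomes was not taken, so nothing particular to chromosome 2 is read from their number. Paired from the leaf side, 36 leaf clusters of 21 nt had an EC partner of 24 nt, and 11 leaf clusters of 24 nt had one of 21 nt. EC had 24 nt clusters in far greater number, so the first kind had more opportunities. The overlap within a pair was 8 to 289 bp with a median of 38 bp. All 4 pairs in the window at 1 to 2 Mb were of the first kind.

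The longest such pair was at chr2:14338071-14338466, a 24 nt cluster of 396 bp in EC that enclosed a 21 nt cluster of 289 bp in leaf (chr2:14338081-14338369). Within 5 kb on either side EC had 7 clusters of 24 nt, 3 of 21 nt and 1 of 22 nt, whereas all 5 leaf clusters were of 21 nt. A further pair of the same kind lay there, with 732 bp in EC and 147 bp in leaf. The same EC cluster of 732 bp also enclosed a leaf cluster of 21 nt with 109 bp. The second longest pair had nearly the same limits in both tissues, chr2:1290369-1290588 with 24 nt in EC and chr2:1290369-1290584 with 21 nt in leaf, both on the plus strand. In the third, a 24 nt cluster of 1281 bp in EC (chr2:5738566-5739846) enclosed a 21 nt cluster of 201 bp in leaf (chr2:5739116-5739316).

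The longest 21 nt clusters included a locus active in both tissues at chr2:14623055-14625579. EC had 3 clusters of 503, 716 and 766 bp there, and leaf had 2 of 556 and 583 bp with shorter ones between them. Within 5 kb of the 766 bp cluster there were 5 clusters of 21 nt in EC and 6 in leaf. All 3 long EC clusters and both long leaf clusters were without strand. The longest 21 nt cluster of EC, chr2:15053765-15054622, was 858 bp long and 17.6% of it was covered by a leaf cluster of class N. The longest of leaf, chr2:10510230-10510966, was 737 bp long and had no EC cluster over it. Within 5 kb of it leaf had 3 clusters of 21 nt and EC had none.

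The longest 24 nt clusters differed between the tissues in how far the other tissue covered them. In EC, chr2:18104082-18105903 (1822 bp) was covered to 5.49% by a leaf cluster, chr2:16114555-16116214 (1660 bp) had no leaf cluster, and chr2:14302691-14304203 (1513 bp, minus strand) was covered to 1.59%. Around the first, within 5 kb, EC had 16 clusters of 24 nt and leaf had 2. In leaf, chr2:6147445-6149316 (1872 bp) was covered to 46.8% by 2 EC clusters of 24 nt, and chr2:6136854-6138166 (1313 bp, plus strand) to 67.9% by 4. The third, chr2:3197234-3198070 (837 bp), was covered to 66.8%. The 3 longest leaf clusters of 24 nt thus had EC clusters of 24 nt over them, while the 3 longest of EC had little or nothing over them in leaf. Clusters of 24 nt covered 969 kb in EC and 200 kb in leaf, and no correction for this was made.

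The longest cluster of the chromosome in EC was of class N. It spanned 2902 bp on the minus strand (chr2:18714567-18717468), and 3 leaf clusters of class N, all on the minus strand, covered 93.3% of it. Of these, chr2:18714559-18715893 (1335 bp) and chr2:18716304-18717420 (1117 bp) were the longest N clusters of leaf. Clusters of a single strand and with no called size were thus found at the same place in both tissues. The next EC clusters of class N were far shorter, with 464 bp (chr2:13414504-13414967) and 402 bp (chr2:10647228-10647629), and neither had a leaf cluster. The third of leaf, chr2:7670148-7670931 (784 bp), was covered to 75% by 2 EC clusters of 24 nt.

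A single locus of chromosome 2 carried the mark for a miRNA gene, in both tissues. It was a 21 nt cluster on the minus strand, chr2:17944811-17944922 (112 bp) in EC and chr2:17944810-17944925 (116 bp) in leaf. In the study's methods miRNA reads were removed before mapping, and this cluster remained in both lists.

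Clusters were finally compared by their spacing. Between neighbouring clusters there was a median of 540 bp in EC (quartiles 200 and 1554 bp) and of 2181 bp in leaf (quartiles 553 and 6652 bp). Gaps of at most 500 bp were 48.2% of those in EC and 24.2% of those in leaf. Gaps of at least 20 kb numbered 86 in EC and 200 in leaf. The shortest gap was 74 bp in EC and 73 bp in leaf. EC clusters therefore lay closer together along the chromosome.

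The longest stretch without an EC cluster was 71932 bp (chr2:4867470-4939401), and it held 13 leaf clusters, 8 of them of 24 nt. The longest without a leaf cluster was 145203 bp (chr2:11076056-11221258), where EC had 33 clusters, 29 of them of 24 nt, covering 3516 bp. Neither stretch was without siRNA clusters in the other tissue.

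With all windows included, clusters of 21 nt tended to follow each other. The next cluster along the chromosome was also of 21 nt for 21.1% of the 21 nt clusters in EC (15.7 to 27.3), where the class was 2.08% of the list. In leaf it was 18.9% (13.8 to 24.8), where the class was 6.37%. These values include the window at 15 to 16 Mb, which had been chosen on its counts. That window held 50 of the 204 clusters of 21 nt in EC and 20 of the 212 in leaf. Whether the tendency remains without it was not tested. For 24 nt clusters the shares were 79.4% in EC and 65.3% in leaf, little above the 78.1% of the EC list and 60.7% of the leaf list. Neighbours with a strand were on the same strand in 53.0% of cases in EC and 57.3% in leaf.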

How the data were processed

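The authors trimmed and size filtered the reads, removed tRNA, rRNA and miRNA reads, and mapped the rest to PN40024 12X with ShortStack, which also formed the clusters. The deposited lists give, in bp or as text, the start and end position, strand, DicerCall and miRNA mark of each cluster. For the minimum coverage and padding of clusters, no value is given in the sources used here. Clusters were counted as deposited and placed in windows by midpoint. Overlaps of at least 1 bp were paired by longest overlap. Ratio intervals were converted from exact binomial intervals of the EC share. Alternatives were a minimum length, covered length, merging, moved windows, other overlap rules and, chosen after seeing the data, leaving out 1 to 2 or 15 to 16 Mb. Named regions were all miRNA marks and, per tissue and for 24 nt, 21 nt and N, the 3 longest clusters, with the longest empty stretches and the 3 longest pairs that change between 21 and 24 nt. Surroundings, other long 21 nt clusters and bins rich in them were added after their values were seen. Members and lists were chosen with earlier results of these data known. Gene positions were not analysed here. Scripts used Python 3.11.15, numpy 2.4.6, scipy 1.17.1 and matplotlib 3.10.9 and were tested on simulated data.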

Additional observations from a re-analysis of the deposited data

How the results depend on the processing

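No paired analysis was possible because there was a single library for each tissue, and for that reason no replicate could be left out. Among the alternatives described here, the 21 nt ratio of chromosome 2 lay on either side of 1, between 0.802 and 1.31, while the ratios for all classes, for 24 nt clusters and for the 3 chosen windows stayed on their side of 1. Of 42 alternative values, 12 stayed within the counting interval. Among the few clusters of at least 500 bp the ratio was 2.50 for 21 nt and 0.250 for class N, where there were 1 in EC and 4 in leaf. With clusters over 30 bp the EC/leaf ratio was 3.34 for all classes and 4.30 for 24 nt, and 62.0% of EC and 58.0% of leaf 24 nt clusters had no strand. With clusters of at least 100 bp the ratio was 4.22 for all classes, 5.13 for 24 nt, 1.21 for 21 nt, 17.1 at 12 to 13 Mb and 9.73 at 15 to 16 Mb. In that setting 10.03% of EC clusters were overlapped, and 70.1% of EC and 65.0% of leaf 24 nt clusters had no strand. By covered length the ratio was 3.80 for all classes, 4.85 for 24 nt, 1.31 for 21 nt, 15.5 at 12 to 13 Mb and 9.75 at 15 to 16 Mb. Merging clusters within 500 bp gave 2.02 for all classes and 2.70 for 24 nt. Windows moved by 0.5 Mb upstream gave 5.05 for 12 to 13 Mb, and downstream 6.43 for that window and 4.84 for 15 to 16 Mb. Overlap required over 50% of a cluster was 8.26% in EC and 32.7% in leaf, by midpoints within 500 bp 28.6% in EC and 66.8% in leaf, and with equal DicerCall 10.1% in EC and 29.9% in leaf. Without 15 to 16 Mb, chosen after seeing the data, the ratio was 2.83 for all classes and 3.60 for 24 nt. The window at 1 to 2 Mb stayed between 0.790 and 0.890, with intervals that included 1 for clusters of at least 100 bp and for windows moved downstream.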
